A study of Mus musculus with 6 samples.

Results

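The Hox and Nkx homeobox genes were taken as every probe whose gene symbol in the array annotation begins with Hoxa, Hoxb, Hoxc, Hoxd or Nkx. The rule found 78 probes for 51 genes, out of 45281 probes and 19057 named genes on the array. They comprised 10 Hoxa genes with 19 probes, 10 Hoxb genes with 15 probes, 9 Hoxc genes with 11 probes, 10 Hoxd genes with 14 probes and 12 Nkx genes with 19 probes. Among the Hoxd symbols, Hoxd3os1 is a long noncoding RNA, so 38 of the 39 Hox symbols stand for protein-coding genes. For 21 genes several probes were present, at most 4 each for Hoxa3 and Hoxb3, and probes of one gene share its transcripts and are not independent measurements.

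RNA came from thymic lymphocytes of 3 KO mice and 3 wt mice, with 1 bead array per mouse, so the errors are spreads between mice. The KO mice were CD4-Cre/Kap1flox, in which KAP1, the corepressor encoded by Trim28, is deleted in the T lineage, and the wt mice were wt/Kap1flox littermates. All mice were 8 to 12 weeks old and of the C57/bl6-129sv background. The CD4-Cre transgene recombines in thymocytes once they express CD4 together with CD8, so earlier thymocytes and the other cells of the thymus are not its targets. The cells were released mechanically and no sort is named. The sources used here do not give the number of floxed copies in the controls, or whether any control carried the Cre transgene.

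Hox genes lie in clusters and encode transcription factors that give cells their position along the body axis. Trithorax proteins keep them active and Polycomb proteins keep them silent. In blood formation several Hox genes of the A and B clusters are active in stem and progenitor cells and are shut down as cells mature. Nkx genes encode related homeodomain factors that act in organ formation, in the heart, thyroid, lung, pancreas and brain, and are not known as genes of normal thymocytes.

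The thymocyte label was borne out by 15 of 18 probes of the thymocyte marker list, which were detected on each of the 6 arrays. Between 13973 and 15182 probes were detected per array at a detection p under 0.01, and the mean raw signal ran from 340.1 on the wt replicate 6 array to 678.5 on the KO replicate 1 array. The only Trim28 probe had a log2 signal of 10.69 ± 0.40 in KO mice and 12.41 ± 0.17 in wt mice (SD, n = 3 each), with no overlap between the groups. Its log2 difference, KO minus wt, was -1.72 ± 0.26 (SE), with an adjusted p of 0.230 in limma. The sources used here do not place that probe relative to the floxed exons. The summed marker signals of 3 other cell types did not overlap between the genotypes, although none of their genes passed an adjusted p of 0.05 in limma. The summed background-corrected signal of macrophage and dendritic cell markers lay between 11300 and 20954 in KO mice and between 6362 and 8466 in wt mice, and 10 of its 17 probes were detected on at least 1 array. Of its 6 tested genes 5 had an unadjusted p under 0.05 and were higher in KO mice, the class II antigen presentation genes Cd74, H2-Aa, H2-Ab1 and H2-Eb1 and the macrophage gene Mpeg1. Among all 8200 tested genes with a name, 182 passed that level as higher in KO mice. For B cell markers the sum lay between 1099 and 1936 in KO mice and between 901 and 1041 in wt mice, with 4 of 7 probes detected and 1 of 2 tested genes, Blk, at an unadjusted p under 0.05. For mesenchyme markers the sum lay between 583 and 936 in KO mice and between 468 and 540 in wt mice, with 3 of 19 probes detected and 0 of 1 tested genes at that level. The part of these cells in the Hox and Nkx values was not tested. In whole preparations a different number of cells of a type and a different amount of RNA per cell cannot be told apart.

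Most Hox and Nkx genes gave no signal above background in either genotype. Of the 78 probes, 69 (88.5%) were detected on 0 of the 6 arrays, against 61.2% of all probes on the array. The other 9 probes, for 8 genes, were detected on at least 1 array, a share of 11.5% against 38.8% of all probes and 5.93% of 135 probes for 82 other homeobox genes. By family they were 3 Hoxa, 2 Hoxb, 2 Hoxc, 0 Hoxd and 2 Nkx probes. Hoxa7 was detected on 6 arrays and Hoxa5 on 5. A probe of Nkx2-4 was detected on 3 arrays, all from KO mice. Of the remaining 6 probes, 1 was detected on 2 arrays and 5 on 1 array.

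Only these 3 probes, for Hoxa7, Hoxa5 and Nkx2-4, met the condition for a test, detection on at least 3 of the 6 arrays. None of them passed an adjusted p of 0.05 in limma, where 4 of all 14651 tested probes (0.0273%) did. At an unadjusted p under 0.05 the count was 1 of 3, the Nkx2-4 probe, which was higher in KO mice. Of all tested probes 3.54% passed that level, 2.25% as higher and 1.29% as lower in KO mice. The Nkx2-4 probe met the condition for a test only through its KO arrays, so the count of 1 of 3 cannot be read against that share. A difference for Hoxa5 or Hoxa7 smaller than their standard errors allow, or for a probe below background, was not detectable on these arrays.

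**Figure D1:**
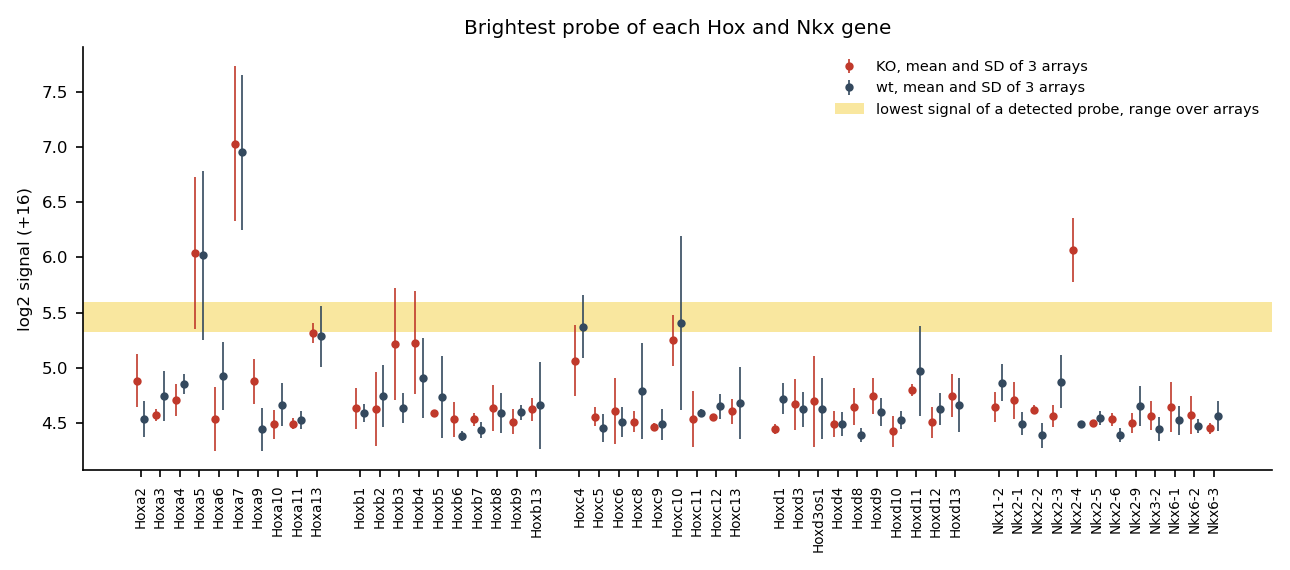
Mean log2 signal of the brightest probe of each of the 51 genes, with the SD over 3 KO arrays (red) and 3 wt arrays (blue), in the order of the Hoxa, Hoxb, Hoxc, Hoxd and Nkx families. The band spans the lowest signal of any detected probe on each array, from 5.32 to 5.59, and both genotypes lie above it for Hoxa7 and Hoxa5, and KO alone for Nkx2-4.

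The first bases around the starts of Nkx2-4, Hoxa5 and Hoxa7 are shown because these are the genes with a tested probe. Each stretch of 300 bases spans the first listed start of the gene, on the minus strand of GRCm38.p6, from RefSeq. Any other start of a gene was not analysed. Capitals mark CpG dinucleotides, the bases that can carry DNA methylation.
Nkx2-4, chr2:147085296-147085595: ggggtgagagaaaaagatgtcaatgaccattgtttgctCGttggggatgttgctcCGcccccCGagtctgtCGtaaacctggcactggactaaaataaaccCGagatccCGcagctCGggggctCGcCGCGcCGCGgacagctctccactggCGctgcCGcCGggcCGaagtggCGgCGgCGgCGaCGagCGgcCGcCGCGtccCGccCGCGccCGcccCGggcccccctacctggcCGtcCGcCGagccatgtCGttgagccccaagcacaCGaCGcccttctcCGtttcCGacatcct
Hoxa5, chr6:52204538-52204837: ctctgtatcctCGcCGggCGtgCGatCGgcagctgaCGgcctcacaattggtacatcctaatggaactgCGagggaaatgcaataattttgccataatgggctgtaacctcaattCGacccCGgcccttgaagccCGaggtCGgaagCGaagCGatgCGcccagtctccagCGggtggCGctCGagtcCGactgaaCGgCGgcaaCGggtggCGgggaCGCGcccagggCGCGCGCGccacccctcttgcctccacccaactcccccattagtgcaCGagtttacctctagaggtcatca
Hoxa7, chr6:52218524-52218823: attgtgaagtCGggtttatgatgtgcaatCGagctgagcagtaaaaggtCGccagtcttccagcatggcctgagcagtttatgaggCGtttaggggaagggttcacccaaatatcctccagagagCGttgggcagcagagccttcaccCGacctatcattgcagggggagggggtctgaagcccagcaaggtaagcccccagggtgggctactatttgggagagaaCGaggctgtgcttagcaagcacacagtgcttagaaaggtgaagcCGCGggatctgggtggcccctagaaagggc
The Nkx2-4 promoter held 38 CpG dinucleotides and 68.3% G and C, a number of CpG reached by 4.78% of the 27025 promoters in the table. Hoxa5 held 29 CpG, reached by 12.7%, and Hoxa7 held 9 CpG, reached by 46.2%. The median was 15 CpG over the 33 Hox and Nkx genes with an entry, with a range of 4 to 45, and 7 over all promoters. On both strands, TATAAA (the TATA box) was present in 14.2% of all promoters and 9.09% (3 of 33) of those of Hox and Nkx genes. TGATTNAT, a site bound by PBX and HOX proteins together, was present in 3.36% of all promoters and 6.06% (2 of 33) of those of Hox and Nkx genes. TNAAGTG, the core bound by NK2 proteins, was present in 11.5% and 15.2% (5 of 33). These counts are too small to compare the shares. None of these motifs had a match in the 3 windows printed here.

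Nkx2-4, a relative of the thyroid and lung factor Nkx2-1 that is known from the developing forebrain, had the only probe of the 78 that was detected on all KO arrays and no wt array. The raw signal of probe ILMN_1258441 was 191.9, 167.5 and 145.6 in the KO mice and 105.3, 108.3 and 100.0 in the wt mice. Its normalised log2 signal, taken after background correction and the addition of 16, was 5.97, 6.39 and 5.84 in the KO mice and 4.47, 4.52 and 4.48 in the wt mice. On both scales each KO array lay above each wt array, and the wt values stood at the level of undetected probes. The differences between animals with neighbouring numbers in the deposited table were 1.50, 1.87 and 1.36. Their shared sign adds nothing, because any pairing of groups that do not overlap gives it.

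The log2 difference for this probe, KO minus wt, was 1.58 ± 0.22 (SE, n = 3 each), with a 95% interval of 1.08 to 2.08, an unadjusted p of 6.86e-05 and an adjusted p of 0.201 in limma. The probe met the condition for a test only through the 3 KO arrays on which it was high, so these values are not independent of that condition. With the neighbouring animals as a block the adjusted p was 0.269. Because the wt arrays were below detection, they give a bound. The mean of 6.07 in KO mice stood against a lowest detectable signal of 5.50 in wt mice, where the measured mean was 4.49. By these means the signal of this probe was at least 1.48-fold higher in KO mice. The bound rests on the same detection calls that singled out this probe, so it is not independent of them. It carries no error and does not extend to the gene's other probe. Detection on 3 KO and 0 wt arrays occurred for 61 of all probes (0.135%), and detection on 3 wt and 0 KO arrays for 12 (0.0265%), with 0 Hox or Nkx probes among those 12. The groups did not overlap for 7.64% of all tested probes. The call depended on the scale. With an offset of 1 in place of 16 the difference was 2.79 with an adjusted p of 0.0333 in limma. In the authors' processed values it was 2.07 with an adjusted p of 0.0295 in limma. Those wt values, -4.13, -1.36 and -3.29, were all negative and were set to 0. This setting removed the spread between the wt mice, so that p does not take it into account.

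The second Nkx2-4 probe, ILMN_2719346, did not show this pattern. Its log2 signal was 4.81, 4.33 and 4.69 in the KO mice and 4.43, 4.70 and 5.52 in the wt mice, and only the wt replicate 6 array was detected. The groups overlapped, and the difference of -0.27 had the opposite sign to that of the first probe. Where on the transcript each probe lies was not analysed here.

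Of the genes beside Nkx2-4 on chromosome 2, Xrn2 and Kiz had tested probes. Xrn2, a nuclear exoribonuclease, had log2 differences of 0.004, 0.12 and 0.11 on its 3 probes. Kiz, a centrosome protein, was detected on all arrays and differed by 0.08 and 0.26. Nkx2-2, a factor of the ventral neural tube and of pancreatic endocrine cells, was detected on 0 arrays by either of its probes, which differed by 0.23, with each KO array above each wt array, and by 0.05. The noncoding RNA 6430503K07Rik, next in order, was also detected on 0 arrays, with a difference of 0.25. Signals of undetected probes do not show whether these neighbours differed. The adjusted p in limma was 0.998 for each of the 4 tested probes of Xrn2 and Kiz.

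**Figure D2:**
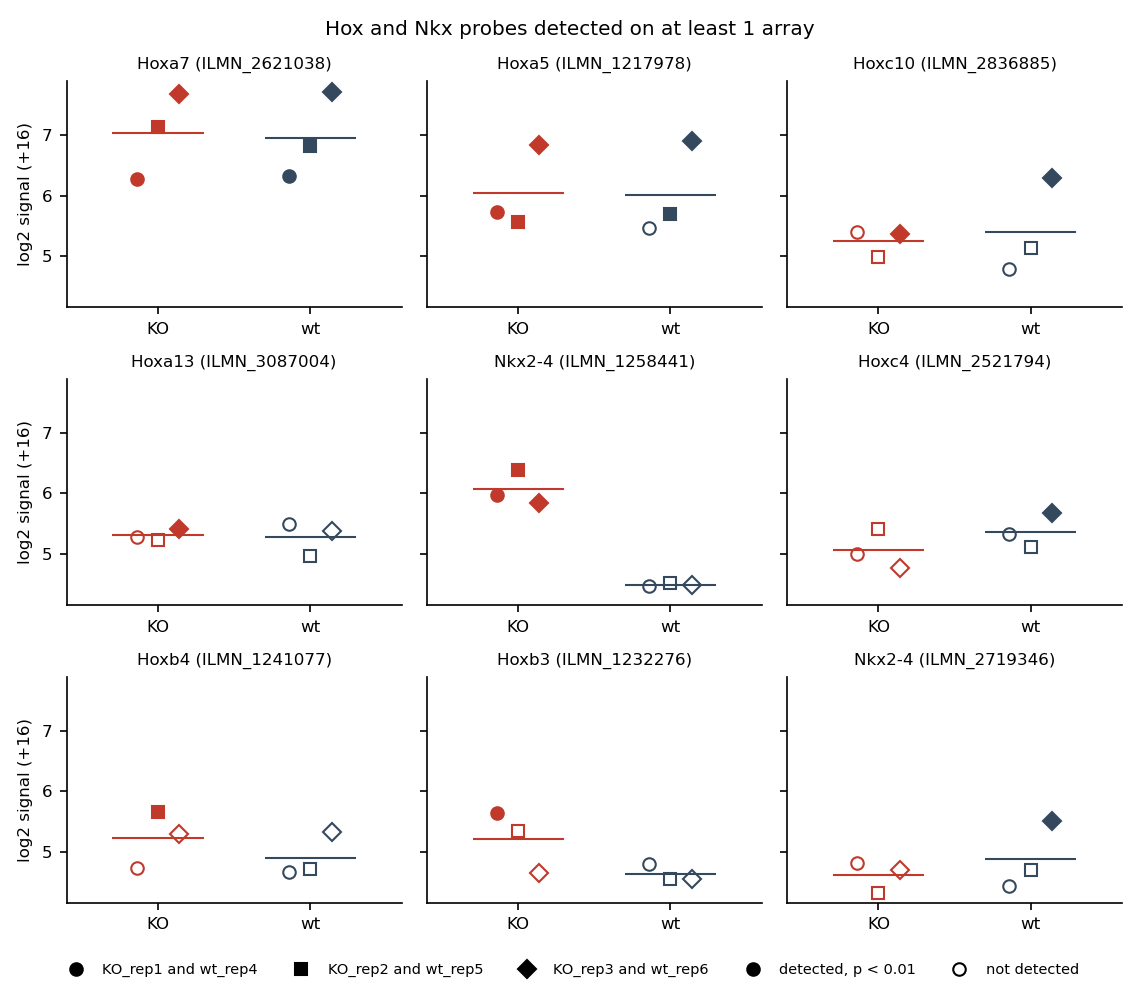
Log2 signal on each array for the 9 Hox and Nkx probes detected on at least 1 array, KO in red and wt in blue, with group means as lines, filled symbols for detected values and 1 symbol shape for each pair of neighbouring animal numbers. The first Nkx2-4 probe is filled on all KO arrays and open on all wt arrays, while Hoxa7 and Hoxa5 are highest on the KO replicate 3 and wt replicate 6 arrays.

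Hoxa7 was the only one of the 51 genes detected on all 6 arrays. It is a factor of trunk patterning that is also known as a target of the trithorax protein KMT2A in blood progenitors. The raw signal of its only probe was 212.2, 223.3 and 267.3 in the KO mice and 183.5, 212.2 and 214.6 in the wt mice. Its normalised log2 signal was 6.28, 7.13 and 7.68 in the KO mice and 6.33, 6.82 and 7.72 in the wt mice. The groups overlapped, at means of 7.03 ± 0.70 in KO mice and 6.95 ± 0.70 in wt mice (SD, n = 3 each). The difference was 0.08 ± 0.44 (SE), with a 95% interval of -0.92 to 1.07 and an adjusted p of 0.998 in limma. With neighbouring animals as a block the interval was -0.41 to 0.56.

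Hoxa5, which patterns the neck vertebrae and the lung, also had its highest normalised signals on the KO replicate 3 and wt replicate 6 arrays. Its raw signal was 176.8, 133.5 and 194.0 in the KO mice and 142.0, 147.8 and 163.7 in the wt mice. The normalised log2 signal was 5.72, 5.56 and 6.84 in the KO mice and 5.46, 5.70 and 6.90 in the wt mice, and the lowest of these, wt replicate 4, was the only undetected one. The groups overlapped, and the difference was 0.02 ± 0.45 (SE, n = 3 each), with a 95% interval of -1.01 to 1.05 and an adjusted p of 0.998 in limma. With neighbouring animals as a block the interval was -0.47 to 0.51. These intervals do not show that KO and wt mice had the same level of either gene.

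For both Hoxa7 and Hoxa5 the KO replicate 3 and wt replicate 6 arrays lay above the other 4 on the normalised scale. The same was true of 13.6% of all tested probes. These animals have neighbouring numbers in the deposited table, and their arrays had the lowest mean raw signals of the 6, at 427.1 for KO replicate 3 and 340.1 for wt replicate 6. On the raw scale the order was different: for Hoxa7 the wt replicate 6 array, at 214.6, lay below the KO replicate 2 array, at 223.3. The summed signals of the TALE cofactor and Polycomb lists were also highest on these 2 arrays, and those of the trithorax, homeobox and cell type lists were not. The part of the low raw signal in this order was not tested. Without the KO replicate 3 array the log2 difference of Hoxa7 was -0.25 and that of Hoxa5 was -0.38, so the sign rested on single animals. Without the wt replicate 6 array the differences were 0.46 and 0.47.

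The other genes near Hoxa5 and Hoxa7 in the cluster were at background. Hoxa6, which lies between them, had a log2 signal of 4.43, 4.31 and 4.87 in the KO mice and 4.61, 5.23 and 4.93 in the wt mice, with overlapping groups. Hoxa4 was at 4.58 to 4.87 in KO mice and 4.78 to 4.95 in wt mice. Hoxa9, a factor of blood stem and progenitor cells and of leukaemia, was detected on 0 arrays by each of its 3 probes, whose differences were 0.43, 0.34 and -0.21. Hoxa10, a related posterior factor, was detected on 0 arrays by both probes, with differences of 0.03 and -0.18. At a detection p under 0.01, signal above background in this cluster was therefore found for Hoxa5, Hoxa7 and, on 1 array, Hoxa13. That count for Hoxa13 depends on the threshold, since the detection p of this probe ran from 0.0075 to 0.059 over the arrays.

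**Figure D3:**
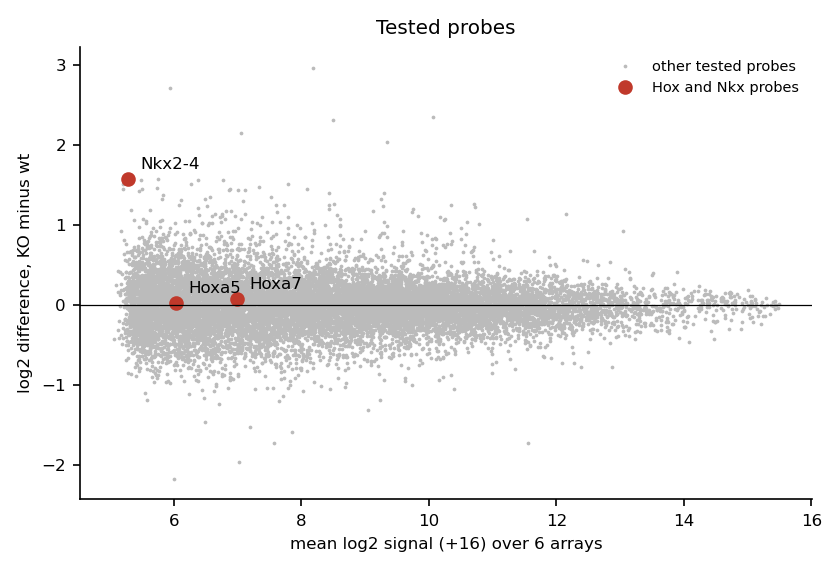
Log2 difference, KO minus wt, against the mean log2 signal over 6 arrays for the 14651 tested probes (grey), with the 3 tested Hox and Nkx probes in red. Nkx2-4 lies at 1.58 near the dim end, and Hoxa5 and Hoxa7 lie at 0.02 and 0.08.

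For each of the probes detected on 1 or 2 arrays the KO and wt values overlapped. Hoxc10, a hindlimb and lumbar spinal cord factor, had a log2 signal of 5.40, 4.98 and 5.36 in the KO mice and 4.79, 5.13 and 6.30 in the wt mice, with the KO replicate 3 and wt replicate 6 arrays detected. Hoxa13, which acts in the digits and hindgut, had 5.29, 5.24 and 5.41 in the KO mice and 5.50, 4.97 and 5.39 in the wt mice, with the KO replicate 3 array detected. The groups overlapped for both genes, with differences of -0.16 and 0.03.

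Hoxc4, a Hox gene known from lymphoid cells, had 5.005, 5.41 and 4.78 in the KO mice and 5.32, 5.11 and 5.68 in the wt mice, and only wt replicate 6 was detected. Hoxb4, known for expanding blood stem cells when overexpressed, had 4.73, 5.66 and 5.29 in the KO mice and 4.67, 4.72 and 5.33 in the wt mice, and only KO replicate 2 was detected. The groups overlapped for both, with differences of -0.31 and 0.32. Hoxb3, its neighbour in the B cluster, had 5.65, 5.35 and 4.65 in the KO mice and 4.79, 4.55 and 4.55 in the wt mice, and only KO replicate 1 was detected. Its difference was 0.58, and between neighbouring animals it was 0.85, 0.80 and 0.10, while the KO replicate 3 array lay among the wt values. Its 3 other probes were detected on 0 arrays and differed by -0.0045, 0.12 and 0.08. Hoxd11, a distal limb factor, was undetected throughout, at 4.76 to 4.86 in KO mice and 4.53 to 5.34 in wt mice. With Hoxa4 it completed the 10 genes whose probes had the highest mean signal, a rank of probes that does not order the genes' transcript levels.

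The number of Hox and Nkx probes detected per array overlapped between the genotypes. It was 4, 4 and 5 on the KO arrays and 1, 2 and 5 on the wt arrays, so the highest wt array matched the highest KO array. The overlap rested on wt replicate 6. The means were 4.33 ± 0.577 in KO mice and 2.67 ± 2.08 in wt mice (SD, n = 3 each), a difference of 1.67 with a two-sided exact permutation p of 0.4, where the smallest p that 20 permutations allow is 0.1. The difference was 2.83 without wt replicate 6 and 0.83 without wt replicate 4. At a detection p under 0.05 the counts were 6, 7 and 9 on the KO arrays and 4, 7 and 8 on the wt arrays, which also overlapped. Over all probes, 14433, 14725 and 15182 were detected on the KO arrays and 13973, 14632 and 14419 on the wt arrays.

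**Figure D4:**
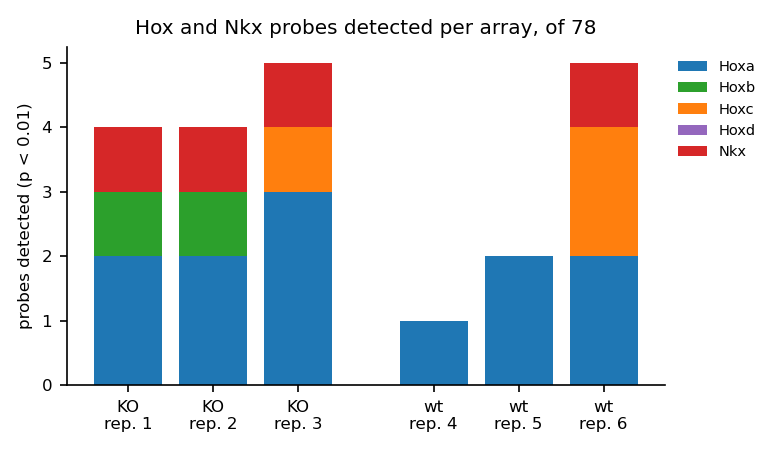
Number of the 78 Hox and Nkx probes detected at p under 0.01 on each KO array (left) and each wt array (right), stacked by family. The KO arrays reach 4, 4 and 5 and the wt arrays 1, 2 and 5, and Hoxd contributes 0 on all arrays.

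The 69 undetected probes showed the floor of the assay. Their log2 signals ran from 4.26 to 5.34 on any array, where the added 16 alone gives 4, and their mean signals had a median of 4.56, against 4.55 for all undetected probes of the array. Their KO minus wt differences ran from -0.39 for Hoxa6 to 0.43 for Hoxa9, with a median of 0.0007 against -0.002 for all undetected probes. In number, 35 were above and 34 below 0. The groups did not overlap for 8 of the 69, where 9.54% of all undetected probes did not overlap. These 8 were probes of Hoxa9 (a pair with opposite signs), Hoxb7, Hoxd1, Hoxd8, Nkx2-2, Nkx2-6 and Nkx3-2, chosen after their values were seen.

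When the fit was run on all 45281 probes, with no condition on detection, 5 of the 78 probes had an unadjusted p under 0.05, of which 3 were higher and 2 lower in KO mice. Over the whole array 3.92% of probes did so. The higher ones were a probe of Nkx2-4 and a pair of Hoxa9 probes. The lower ones were the Hoxd1 probe, at -0.27, and a probe of Nkx3-2, a factor of cartilage and spleen formation, at -0.33. The other Nkx3-2 probe had the opposite sign, at 0.12, with overlapping groups. The lowest adjusted p among these 5 probes was 0.332 in limma, for Nkx2-4.

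Cofactors that bind DNA together with Hox proteins were partly present. Of 8 TALE genes with a probe, from the PBX, MEIS and PKNOX families, 4 were tested. Pbx2 had a log2 signal of 9.27 ± 0.59 in KO mice and 9.77 ± 0.24 in wt mice, and Pknox1 had 8.93 ± 0.27 in KO mice and 9.002 ± 0.15 in wt mice (SD, n = 3 each). Meis3 and Pbx4 were dimmer. Meis1, the partner of Hoxa9 in blood progenitors, was detected on 0 arrays by each of its 3 probes, at no more than 5.16 on any array. Of these 4 tested genes 1 had a positive and 3 a negative difference, with a median of -0.13, and 0 had an unadjusted p under 0.05.

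The genes that keep Hox clusters silent were widely detected. Of 31 Polycomb genes, 26 were tested, with 8 positive and 18 negative differences and a median of -0.08. Over all 8200 tested genes with a name, 3931 differences were positive and 4269 negative, with a median of -0.01. Ezh2, the methyltransferase of the PRC2 complex, had a log2 signal of 9.35, 10.47 and 9.96 in the KO mice and 8.90, 10.43 and 10.68 in the wt mice. Bmi1, a core protein of the PRC1 complex, had 6.65, 7.28 and 6.72 in the KO mice and 6.47, 6.92 and 6.89 in the wt mice. The groups overlapped for both, with differences of -0.08 ± 0.48 and 0.13 ± 0.25 (SE), whose signs changed when single arrays were left out.

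Phf19, a PRC2 partner that recognises methylated histone H3, was the 1 of 26 tested Polycomb genes with an unadjusted p under 0.05, a level that 182 of all 8200 tested named genes passed as higher and 105 as lower in KO mice. Its log2 signal was 7.17, 6.43 and 6.22 in the KO mice and 7.37, 7.51 and 7.17 in the wt mice. The brightest KO array lay at the level of the dimmest wt array. The difference was -0.74 ± 0.28 (SE, n = 3 each), with an unadjusted p of 0.0276 and an adjusted p of 0.998 in limma.

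The activators of Hox genes were also detected. Of 17 trithorax and related genes 16 were tested, with 6 positive and 10 negative differences, a median of -0.14 and 0 with an unadjusted p under 0.05. Kmt2a, the trithorax methyltransferase known to maintain Hoxa7 and Hoxa9, had a log2 signal of 12.18, 10.82 and 12.08 in the KO mice and 11.48, 12.08 and 12.55 in the wt mice. The groups overlapped, with a difference of -0.34 ± 0.41 (SE, n = 3 each) and an adjusted p of 0.998 in limma. Mllt1, a partner of KMT2A fusion proteins, had the most negative difference of the list, at -0.52 ± 0.23 with an unadjusted p of 0.0537.

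**Figure D5:**
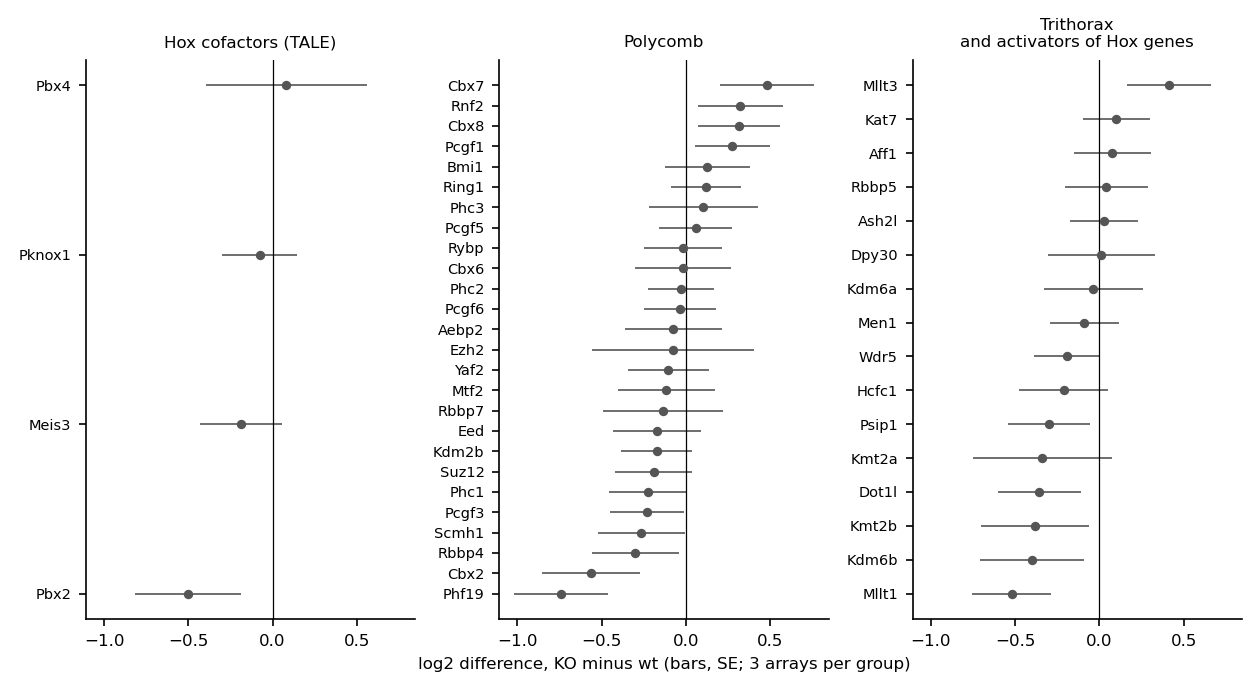
Log2 difference, KO minus wt, with its standard error (3 arrays per group), for the tested genes of the TALE cofactor, Polycomb and trithorax lists, 1 probe per gene. Medians are -0.13, -0.08 and -0.14, and Phf19, at -0.74, is the gene with an unadjusted p under 0.05.

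Other developmental homeobox genes were mostly undetected as well. None of 6 ParaHox and Cdx genes, which share ancestry with or act upstream of Hox clusters, was detected on any array. Of 33 other NK-like genes 2 were tested, Msx3 and Hhex, with log2 differences of 0.22 ± 0.23 and 0.08 ± 0.33 (SE, n = 3 each). Hhex is a factor of blood and liver progenitors, and Msx3 is known from the dorsal neural tube. Of the developmental homeobox genes outside these classes, 49 had a probe and 0 were tested. Of 21 probes for 13 thymic epithelial markers, 4 were detected on at least 1 array, and 2 of the genes were tested, with log2 differences of -0.09 and 0.05. Foxn1, Aire, Psmb11 and Pax9 were detected on 0 arrays. The summed signal of the list overlapped, at 433.3 to 459.7 in KO mice and 394.6 to 486.2 in wt mice. Of early progenitor markers, Kit and Lmo2 were detected on all 6 arrays, while Cd34, Flt3, Spi1 and Tal1 were detected on 0.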

How the data were processed

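Total RNA of 6 samples was measured on Illumina mouse bead arrays, and the submitters' processing notes name BeadStudio 3.1.3. The deposited signal table holds intensity values that were not normalized between arrays, with a detection p-value beside each, per the file headers. The authors' processed value table also holds intensity values, and served as an alternative with negative values set to 0. The sources used here do not say how it was made.

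Signals were processed with neqc in limma 3.58.1 (R 4.3.3), which corrects background by the detection p-values, equalizes quantiles and takes log2 after adding 16. This compresses differences of dim probes. A probe was detected at p under 0.01 and tested when detected on at least 3 of 6 arrays. KO minus wt was fitted with lmFit and eBayes, without covariates, on all 14651 tested probes, with two-sided p-values adjusted by Benjamini-Hochberg, threshold 0.05, 4 residual and 4.51 prior degrees of freedom. The 6 arrays limit the precision, with a median SE of 0.257. The fit was tested on simulated data. A fold written as "at least" sets the KO mean against the mean of the lowest detected signal on the wt arrays.

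Animals with neighbouring numbers in the second header line of the signal table were taken as pairs, by number alone. The correlations of their deviations from the group means, computed afterwards, were 0.128, 0.164 and 0.518. A fit with these pairs as a block was an alternative. Pairing is not stated in the labels, and KO replicate 2 correlated better with wt replicate 4, at 0.317.

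The members and lists were chosen with earlier results of these data known. Named were Trim28, every tested Hox or Nkx probe and the other probes of its gene, the 5 probes detected on 1 or 2 arrays with the smallest mean detection p, the 10 genes of highest mean signal, genes of the regulator and homeobox lists with an unadjusted p under 0.05, and Kmt2a, Bmi1, Ezh2 and Meis1, and 1 further gene of the rule is not reported here. From the regulator, homeobox, thymocyte, thymic epithelium, mesenchyme, endothelium, early progenitor, erythroid, B cell, macrophage and dendritic cell, and stroma lists, each gene was represented by its brightest tested probe. Summed signals of the endothelium, erythroid and stroma lists overlapped between the genotypes. Promoter sequences are from RefSeq for GRCm38.p6, with only the first listed start of each gene used, and matched 33 of 51 genes.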

Additional observations from a re-analysis of the deposited data

How the results depend on the processing

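The 3 tested Hox and Nkx probes were refitted under 16 alternatives, 2 of them chosen after seeing the data. The count of these probes past the adjusted threshold was 0 in 14 alternatives and 1 with an offset of 1 and with the authors' processed values, each time Nkx2-4. In the authors' processed values the wt signals of that probe had all been set to 0, which left them no spread. The tested Nkx2-4 probe was higher in KO mice under all 16, by 0.59 without background correction to 2.79 with an offset of 1. Its adjusted p-values in limma lay between 0.0295 and 0.9999. This probe met the condition for a test only through its KO arrays, and the alternatives refit the same arrays. Their shared sign is therefore no independent support. The other Nkx2-4 probe, not refitted here, differed by -0.27. The count over all probes, 4, was 1 without a filter, 2 without background correction and 2 with animal pairs as a block. It was 1 on raw signal and 0 without KO replicate 3 and wt replicate 6 together. When single arrays were left out it was 0 to 1. It rose to 5 with an offset of 1, 5 with an intensity trend and robust prior, and 6 with the authors' processed values. Array weights or detection at p under 0.05 left it at 4. With animal pairs as a block no Hox or Nkx probe changed its call. When single arrays were left out, the difference ran from -0.38 to 0.47 for Hoxa5, -0.25 to 0.46 for Hoxa7, -0.62 to 0.10 for Kmt2a, -0.071 to 0.24 for Bmi1 and -0.63 to 0.26 for Ezh2. Bmi1 was at -0.047 with array weights, and Ezh2 at 0.11 on raw signal and 0.24 without KO replicate 3 and wt replicate 6. The cause of these changes of sign was not tested. Trim28 was lower in KO mice under all 16, at -1.86 to -1.41, and passed with an intensity trend and robust prior (adjusted p = 0.0308 in limma). The difference in detected probes per array lay between 0.33 and 2.83 in 10 alternatives, at 2.83 without wt replicate 6 and 0.83 without wt replicate 4. Probes below background have only a bound, and these arrays cannot show differences there.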
